A study of Homo sapiens with 10 samples.

Results

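The nuclear-encoded subunits of the respiratory chain were examined as a group of 80 genes out of the 62656 genes of the deposited table. They were chosen by gene symbol alone, from the symbols of the structural subunits, with pseudogenes left out. By symbol, 37 genes belonged to complex I, 4 to complex II, 9 to complex III, 15 to complex IV and 15 to complex V. The cells were PC3, a human prostate cancer line of epithelial origin. They were starved overnight and then kept for 24 h in RPMI-1640 with 2 mM L-glutamine. One group of 5 libraries received 1 µM of GW3965, a synthetic agonist of the liver X receptors (LXRs), and the other group of 5 libraries received the vehicle DMSO. No genetic change separated the groups, and starvation, medium and time were common to both. Nothing in the labels says whether the replicates came from separate cultures, so the p-values measure the spread between these libraries, which may be technical.

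Complexes I to IV pass electrons from NADH or succinate to oxygen in the inner mitochondrial membrane, and complexes I, III and IV pump protons as they do so. Complex V, the ATP synthase, uses the proton gradient to make ATP. The mitochondrial genome encodes a minority of the subunits and none of complex II, so that the remaining ones are made in the cytosol from nuclear mRNAs and imported. The promoters of these nuclear genes are known for sites of NRF1, of the ETS factor GABP and of YY1.

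Motif letters of these factors were looked up on both strands in the RefSeq promoter windows (build GRCh38.p14, from 250 bases before to 50 bases after a start site), which held 77 windows of 64 of the 80 genes, since 9 genes had several windows and 16 had none. The stretches printed here are shown because they belong to the gene with the highest level in each complex that had a window with such letters before its start. Each has 60 bases, and capitals mark the motif, which is GCGCA, any base and GCGC for NRF1 or CCGGAAG for ETS, or the reverse complement of either. The letters of one factor were counted without regard to an overlap with those of another.
NDUFB7, complex I, chr19:14572067-14572126, minus strand, ETS: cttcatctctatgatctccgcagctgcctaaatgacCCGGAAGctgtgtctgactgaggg
SDHB, complex II, chr1:17054127-17054186, minus strand, ETS: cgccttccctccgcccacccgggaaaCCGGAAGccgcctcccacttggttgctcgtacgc
UQCRC1, complex III, chr3:48609659-48609718, minus strand, NRF1 reversed: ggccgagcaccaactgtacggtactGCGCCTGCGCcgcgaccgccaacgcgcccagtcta
COX8A, complex IV, chr11:63974560-63974619, plus strand, ETS reversed: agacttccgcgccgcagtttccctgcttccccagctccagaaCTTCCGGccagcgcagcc
ATP5PD, complex V, chr17:75047037-75047096, minus strand, ETS reversed: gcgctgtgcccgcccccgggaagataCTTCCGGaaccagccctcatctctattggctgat

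The NRF1 letters were in 19.5% of the 77 windows, against 5.78% of all 35116 windows of the same length and 10.2% of the 13951 windows of tested genes. For the ETS letters the shares were 27.3%, 10.3% and 17.0%, and for the YY1 letters AAGATGGC they were 16.9%, 2.89% and 4.82%. The letters GGGCGGG of SP1 were in 31.2% of the group's windows, which was near the 33.1% of all windows and below the 50.6% of the windows of tested genes. Of the 12 genes of complex IV with a window, 0 held the NRF1 letters and 5 held the ETS letters, while 4 of the 7 genes of complex III held the NRF1 letters. A match of letters is a description and does not show that a factor binds there.

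The libraries held from 30431690 to 41638859 reads by the counts recovered from the RPKM values (reads divided by gene length in kilobases and by a factor of the library), and the group took from 0.437 to 0.518% of them. In PC3 the epithelial keratin genes KRT8 and KRT18 were at 36.8 ± 4.3 and 49.8 ± 5.9 RPKM with DMSO (SD, n = 5), while CDH1 was at 0.25 ± 0.13. Markers of leukocytes, endothelium and fibroblasts summed to between 1.17 and 1.93 RPKM in a library, and 2 of these 9 genes, PECAM1 and COL1A1, reached 0.5 RPKM. The agonist acted on its known targets: the cholesterol exporter gene ABCA1 rose from 3.43 ± 1.34 to 16.5 ± 2.4 RPKM (adjusted p = 0.00063, limma with Benjamini-Hochberg adjustment) and ABCG1 from 1.57 ± 0.39 to 7.06 ± 0.79 RPKM.

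Levels differed widely within the chain. Tests were limited to genes averaging 0.5 RPKM or more over the libraries, which 77 of the 80 did. Among them the level ran from 1.09 RPKM for NDUFA9 to 245 RPKM for COX8A, with a median of 18.4 RPKM against 3.11 RPKM for all tested genes. By complex, the median level was 11.2 RPKM for complex I, 19.2 for complex II, 19.6 for complex III, 30.0 for complex IV and 18.6 for complex V. RPKM here divides by the length of all annotated exons of a gene and not by that of 1 mRNA.

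**Figure D1:**
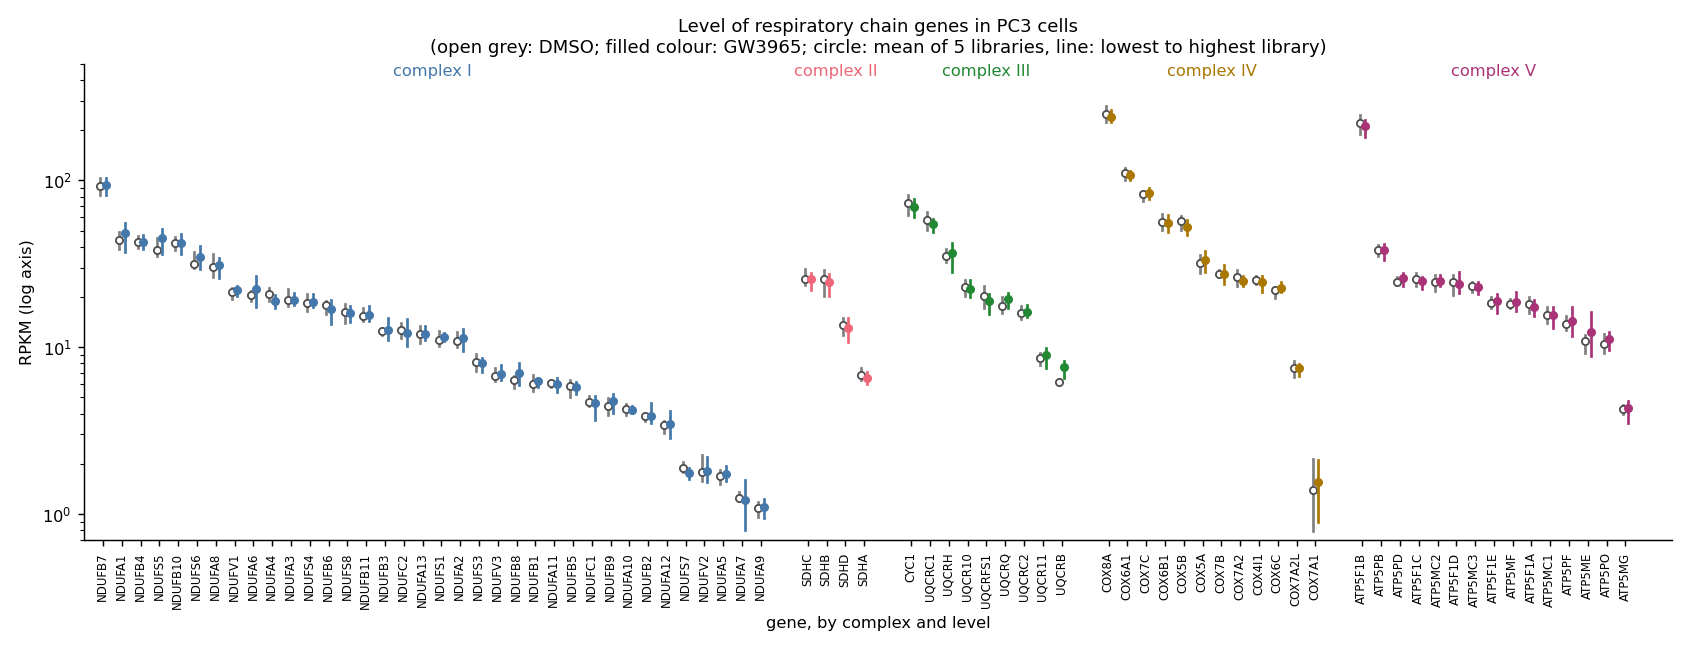
RPKM on a log axis of 76 of the 77 tested genes, grouped by complex and ordered by level, with the mean of 5 DMSO libraries (open circles) and of 5 GW3965 libraries (filled circles) and lines from the lowest to the highest library. COX8A and ATP5F1B stand highest, with means of 251 and 221 RPKM with DMSO, and the means of NDUFA9, NDUFA7, NDUFA5, NDUFV2, NDUFS7 and COX7A1 lie below 2 RPKM in both conditions.

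In complex I, which oxidises NADH, the highest level was that of the accessory subunit gene NDUFB7, with 93.1 ± 8.7 RPKM with DMSO and 93.2 ± 8.9 with GW3965. The lowest was that of another accessory subunit gene, NDUFA9, with 1.08 ± 0.09 and 1.10 ± 0.11 RPKM. Between the groups the level of neither gene moved by more than its SD. In complex II, succinate dehydrogenase, the order with DMSO was SDHB (the iron-sulphur subunit) at 25.7 ± 4.1, SDHC (a membrane anchor) at 25.5 ± 2.3, SDHD (the other anchor) at 13.6 ± 1.3 and SDHA (the flavoprotein) at 6.80 ± 0.53 RPKM. SDHB and SDHC differed by less than their spread.

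In complex III, the cytochrome c1 gene CYC1 was highest with 73.2 ± 7.2 RPKM with DMSO and 69.1 ± 7.8 with GW3965, and UQCRB was lowest. In complex IV, cytochrome c oxidase, COX8A (a small membrane subunit) held 251 ± 19 RPKM with DMSO and 239 ± 18 with GW3965, followed by COX6A1 with 111 ± 8 and 107 ± 5.6 RPKM. The muscle isoform gene COX7A1 was the lowest tested gene of complex IV, with 1.40 ± 0.57 and 1.55 ± 0.48 RPKM from 15 to 44 reads per library. In complex V, ATP5F1B, which encodes the catalytic beta subunit, held 221 ± 23 and 211 ± 23 RPKM, and ATP5MG (subunit g) the least with 4.24 ± 0.21 and 4.30 ± 0.49 RPKM.

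There were 3 genes below the limit of 0.5 RPKM, all of them isoforms of complex IV with a restricted distribution, and none of them was tested. COX4I2, known from lung, had from 0 to 3 reads per library, and the testis isoform gene COX6B2 from 7 to 30 reads. COX6A2, the heart and muscle isoform, had 0 reads in all 10 libraries. Their broadly expressed counterparts COX4I1, COX6B1 and COX6A1 were at 25.3 ± 1.4, 56.1 ± 4.6 and 111 ± 8 RPKM with DMSO.

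The level of a single gene and the order of the complexes depended on the length used. When the same reads were divided by the length of the principal transcript of GENCODE 29 instead, NDUFB9 went from rank 67 to rank 11 of 77, COX4I1 from rank 25 to rank 4, and SDHC from rank 21 to rank 74. For NDUFB9 the length of all exons was 16591 bases and that of the principal transcript 711 bases. ATP5F1B, COX6A1 and COX8A held the first 3 ranks by this scale, and the orders by both scales had a Spearman rho of 0.66 across the 77 genes. In scaled reads per kilobase, the median was 960, 881, 992, 2777 and 1341 for complexes I to V. Complex II was thus lowest in place of complex I. NDUFB7 and COX8A were no longer the highest of their complexes, and UQCRB and ATP5MG no longer the lowest. A comparison between conditions within a gene does not depend on this length.

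The comparison of GW3965 with DMSO asked whether the agonist changed the mRNA of the chain. None of the 77 genes passed the threshold of 0.05 on the adjusted p in limma, in either direction, where 0.147% of all 20402 tested genes were called higher and 0.0098% lower (0.157% in all). With limma's voom on the recovered reads, 0 genes passed as well. An unadjusted p under 0.05 was found for 1 gene, UQCRB, which was higher with GW3965, where 4.64% of all tested genes had such a p and were higher and 2.36% were lower (6.99% in all). Of the 77 log2 fold changes, 44 were above 0 and 33 below, where 51.1% of all tested genes were above 0. Their median was 0.0073, against 0.0034 for all tested genes.

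The intervals around these values were narrow. For 76 of the 77 genes the 95% interval of the fold change lay within 1.5-fold either way, which held for 75.1% of all tested genes. The exception was COX7A1, with a log2 fold change of 0.18 and an interval from -0.45 to 0.81. The median standard error was 0.082 on the log2 scale, compared with 0.084 for tested genes of at least 10 RPKM. In bulk RNA, fewer cells with an mRNA and less of it in each cell cannot be told apart.

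**Figure D2:**
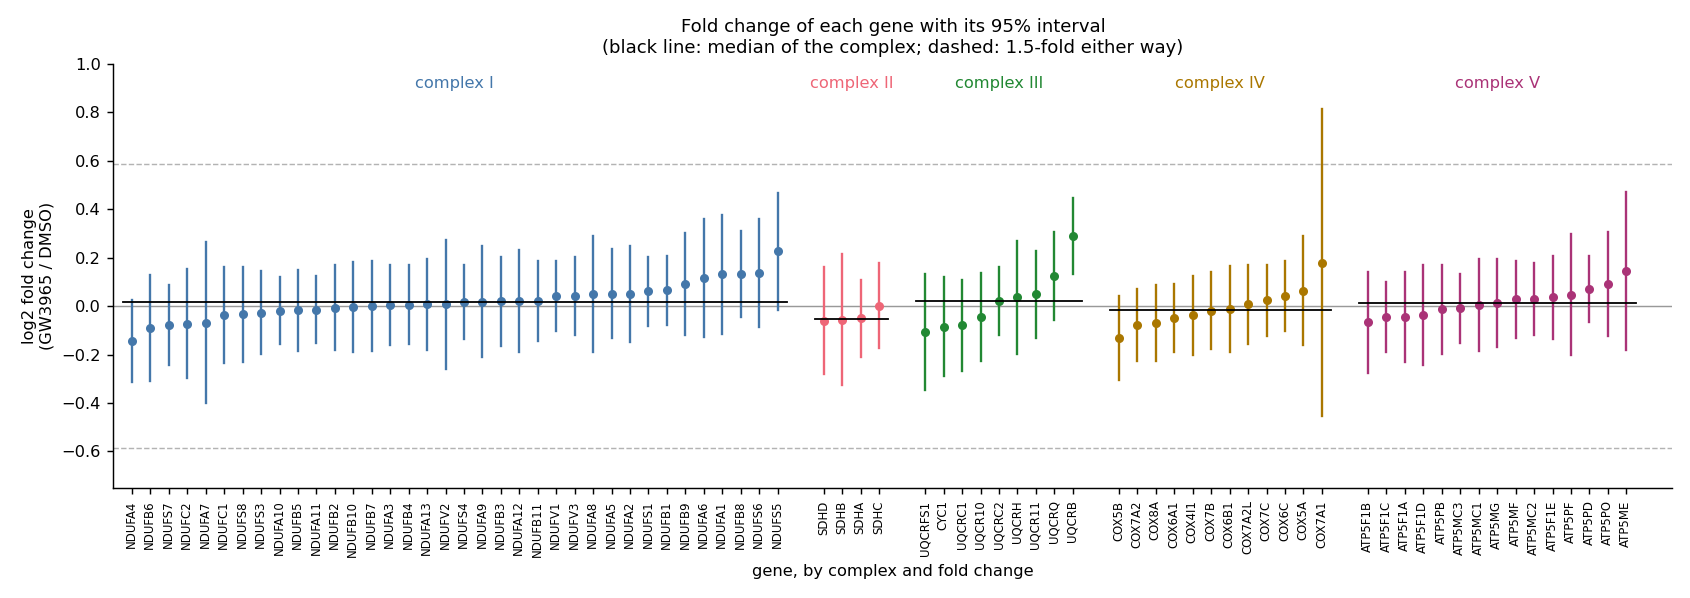
Log2 fold change of GW3965 over DMSO of 76 of the 77 tested genes, each with its 95% interval, by complex, with the median over all tested genes of a complex as a black line and dashed lines at 1.5-fold either way. UQCRB is the only gene whose interval leaves out 0, and the interval of COX7A1 is the only one that crosses a dashed line.

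By complex, the median log2 fold change was 0.015 for complex I (24 genes above 0 and 13 below), -0.054 for complex II (1 and 3), 0.021 for complex III (5 and 4), -0.016 for complex IV (5 and 7) and 0.014 for complex V (9 and 6). The sign of each median changed under some alternatives, and differences between the complexes were not tested. By role, the 7 core subunit genes of complex I, which carry the redox centres, had a median of 0.0075 and the 30 accessory ones 0.016. In complex III both redox subunit genes, CYC1 and UQCRFS1, were below 0 (median -0.095), and 4 of the 5 small subunit genes were above 0 (median 0.048). In complex V, 4 of the 5 genes of the F1 head were below 0 (median -0.044), and 3 of the 4 of the peripheral stalk above (median 0.059). None of these genes but UQCRB had an unadjusted p under 0.05.

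UQCRB encodes a small subunit of complex III at its ubiquinone site, and lies on chr8:96225920-96235634 (hg38, minus strand). With DMSO its libraries 1 to 5 held 6.34, 6.45, 5.94, 5.90 and 6.16 RPKM, and with GW3965 they held 6.49, 7.20, 7.90, 8.29 and 8.00 RPKM. The groups did not overlap, although GW3965 library 1 was just above the highest DMSO library. Groups that did not overlap, with GW3965 higher, were found for 1.35% of all tested genes (1.84% in either direction), and UQCRB was the 1 gene of the 77. Its log2 fold change was 0.29 with a 95% interval from 0.13 to 0.45 and an adjusted p of 0.229 (limma, Benjamini-Hochberg), so that it was not past the threshold. A processed copy, UQCRBP1, had a log2 fold change of 0.38 with an unadjusted p of 0.0205 and an adjusted p of 0.568 in limma. It was not past the threshold either, and held 4.13% as many reads as UQCRB. The part of the copy in the value of UQCRB was not tested.

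NDUFS5, an accessory subunit gene of complex I on chr1:39026318-39034636 (plus strand), had the next highest value. It held 35.2, 36.9, 39.5, 45.4 and 35.2 RPKM with DMSO and 36.2, 39.9, 51.2, 49.0 and 49.7 RPKM with GW3965. GW3965 libraries 3 to 5 were above every DMSO library, and GW3965 libraries 1 and 2 were within the DMSO range. The log2 fold change was 0.23 (95% interval -0.016 to 0.47, adjusted p = 0.741 in limma). COX7A1, ATP5ME (a membrane subunit of the ATP synthase) and NDUFS6 followed with 0.18, 0.14 and 0.14. These 3 values moved with single libraries but stayed above 0. That of ATP5ME was 0.037 without GW3965 library 4 and 0.25 without GW3965 library 1. That of COX7A1 ran from 0.015 without DMSO library 5 to 0.35 without GW3965 library 2. That of NDUFS6 ran from 0.080 without GW3965 library 3 to 0.20 without GW3965 library 1.

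At the other end stood NDUFA4, which its symbol places in complex I and later work in complex IV, on chr7:10931951-10940256 (minus strand). It held 19.0, 21.1, 22.8, 22.2 and 19.0 RPKM with DMSO and 17.6, 17.2, 18.3, 20.6 and 20.5 RPKM with GW3965, and the groups overlapped. Its log2 fold change was -0.14 (95% interval -0.31 to 0.027, adjusted p = 0.784 in limma). Counted in complex IV, it moved the median of that complex from -0.016 to -0.019.

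COX5B, a subunit gene of complex IV on chr2:97646040-97648383 (plus strand), held 50.6, 57.2, 60.1, 60.9 and 58.1 RPKM with DMSO and 46.9, 47.0, 57.8, 54.3 and 56.3 RPKM with GW3965. GW3965 libraries 1 and 2 were below every DMSO library, and the other GW3965 libraries were within the DMSO range. The log2 fold change was -0.13 (95% interval -0.31 to 0.042, adjusted p = 0.817 in limma). UQCRFS1 (the Rieske iron-sulphur protein), NDUFB6 and CYC1 followed with -0.11, -0.091 and -0.085. With 1 library left out these ran from -0.16 to -0.043 (the latter without GW3965 library 2), from -0.14 to -0.023 and from -0.14 to -0.038 (the latter of both without GW3965 library 1).

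**Figure D3:**
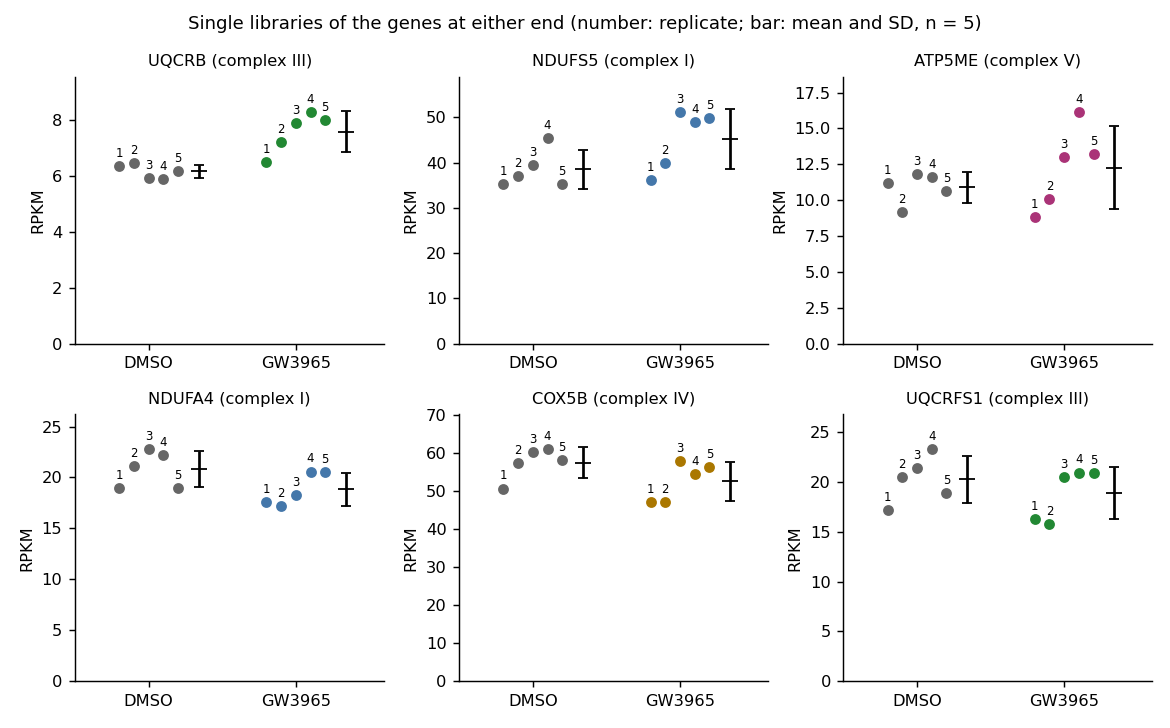
RPKM of single libraries, numbered by replicate, for 3 of the genes with the highest and the 3 with the lowest log2 fold change, each with the mean and SD of 5 libraries. The groups overlap for all of them but UQCRB, and GW3965 libraries 1 and 2 are the lowest of their group in every panel.

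The genes of the chain differed together between libraries of the same condition. Taking each gene's deviation from its mean over 10 libraries, the median over the 77 genes was -0.11, 0.020, 0.042, 0.12 and -0.071 (log2) in DMSO libraries 1 to 5 and -0.16, -0.11, 0.099, 0.10 and 0.068 in GW3965 libraries 1 to 5. DMSO libraries 1 and 5 and GW3965 libraries 1 and 2 were low, with 71, 64, 72 and 71 of the 77 genes below their own mean. In the other 6 libraries from 7 to 31 genes were below it. The share of all tested genes below their mean lay between 42.4 and 53.1% in all libraries. Every complex had a median below 0 in the 4 low libraries and above 0 in the other 6. The split was not particular to the chain: the genes of the citric acid cycle had medians of -0.093, 0.026, 0.041, 0.12 and -0.055 in the DMSO libraries and -0.081, -0.057, 0.066, 0.040 and 0.090 in the GW3965 libraries, with the same signs in all 10. Cytosolic ribosomal protein genes, with medians from -0.13 to 0.14, and assembly factors, from -0.071 to 0.070, were also below 0 in the 4 low libraries, and besides in DMSO library 2 and, for the assembly factors, DMSO library 3.

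Both conditions held low and high libraries, so that the means of the groups were nearly equal, with -0.0006 for DMSO and -0.000024 for GW3965. The first principal component of all tested genes had the same sign as the deviation in 9 libraries, and in DMSO library 2 it was -0.84, where the other libraries lay from -31.6 to 32.6. The share of 7SL RNA did not follow the split: the 4 low libraries held 21.4, 21.5, 12.0 and 14.5% and the other 6 from 13.6 to 23.2%. The share of reads from histone genes was lowest in 3 of the 4 low libraries, with 0.286% in DMSO library 1, 0.272% in GW3965 library 1 and 0.268% in GW3965 library 2, where it was 0.399% in DMSO library 5 and from 0.363 to 0.450% in the other 6. The labels give no batch. Whether culture, RNA or library preparation had a part in the split was not tested.

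Without DMSO library 1 and GW3965 libraries 1 and 2, which had stood apart on the first principal component in an earlier look at these data, the median log2 fold change of the 77 genes was 0.062, with 59 of them above 0, and that of all tested genes 0.018. This leaves out 2 low libraries of GW3965 and 1 of DMSO and keeps DMSO library 5, which was also low. On the first principal component, DMSO library 1 and GW3965 libraries 1 and 2 were at -26.3, -31.6 and -25.0, with DMSO library 5 near them at -21.1. The part of this choice in the higher median was not tested, and no result about the agonist is drawn from it. UQCRB then had a log2 fold change of 0.39 and an adjusted p of 0.0907 in limma, and again 0 genes passed. With the first principal component as a covariate the median was -0.013, with 32 genes above 0, and 0 genes passed. Over all 24 alternatives the lowest adjusted p of UQCRB was 0.0808 in limma, with library weights.

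The spread within a condition was near that of other genes of like level. The median coefficient of variation over 5 libraries was 8.08% with DMSO and 10.0% with GW3965, where it was 9.49 and 8.67% for tested genes of at least 10 RPKM.

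The balance between isoforms was tested by each gene's share of the RPKM of its family, with an exact permutation test over the libraries (two-sided, 4 shares). ATP5MC1, ATP5MC2 and ATP5MC3 encode the same mature c subunit of the ATP synthase ring with different import sequences. ATP5MC2 held 38.9 ± 1.3% of the family with DMSO and 39.4 ± 1.3% with GW3965 (exact permutation p = 0.532), ATP5MC3 36.6 ± 0.6 and 36.1 ± 1.2% (exact permutation p = 0.476), and ATP5MC1 24.6 ± 1.5 and 24.5 ± 1.3% (exact permutation p = 0.944). COX7A2 held 77.9 ± 1.4 and 76.8 ± 0.7% of the sum of COX7A2 and COX7A2L, a factor of supercomplexes (exact permutation p = 0.175, adjusted 0.698). None of the 4 shares passed the threshold. The share of COX7A2 differed by more than the SD of the GW3965 libraries and by less than that of the DMSO libraries, in which library 1 was lowest with 75.6% and the others lay from 77.7 to 79.4%. Without DMSO library 1, the difference of the COX7A2 share (GW3965 minus DMSO) was -1.61 percentage points in place of -1.05, and the groups did not overlap. The exact permutation p was then 0.0159, the smallest that 4 against 5 libraries allow. Over 4 shares its adjusted value was 0.0635, and 1 share alone at this smallest p could not have passed.

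Several of the genes have copies in the genome that reads of 50 bases cannot always be told from. The copies were matched by symbol, with UQCRHL added for UQCRH, and whether each is a processed one was not looked up. Of the 80 genes, 44 had at least 1 named copy in the table, with 159 copies in all and most for COX6C (17), NDUFA5 (12) and NDUFB4 (12). For 9 genes the copies held at least 10% as many reads as the gene. NDUFV2P1 held 13778 reads over 10 libraries and NDUFV2, a core subunit gene of complex I, 1744, so that the low level of NDUFV2 (1.79 RPKM with DMSO) is uncertain. COX6A1P2 held 37759 reads, against 52067 for COX6A1. Of the 54 copies that were tested, 0 passed the threshold in limma. In GENCODE 29, 24 of the genes share exon bases with another gene on the same strand, among them COX8A with 34.5% and NDUFB8 with 33.8% of its exon bases.

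Other genes of the pathway were set beside the chain. Assembly factors, which build the complexes but are not part of them, had 28 of 46 tested genes above 0 and a median of 0.013 (log2), and 0 passed the threshold in limma. The highest was COX17, a copper chaperone of complex IV, with 7.90 ± 0.90 RPKM with DMSO and 9.32 ± 0.65 with GW3965 (log2 fold change 0.24, adjusted p = 0.546 in limma), and the lowest PET117 with -0.24. Subunits that the choice by symbol leaves out, such as the acyl carrier protein NDUFAB1 and cytochrome c (CYCS), had 2 of 5 above 0 and a median of -0.060. Among transcription regulators of the nuclear or of the mitochondrial genes of the chain, 3 of 11 were above 0 with a median of -0.0095. Their values ran from TFAM, the packaging factor of mitochondrial DNA, with 0.084 to PPARGC1B with -0.091.

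The 13 genes of the citric acid cycle had 6 values above 0 and a median of -0.00039. All 13 protein-coding genes of the mitochondrial genome, which encode the other subunits of the chain, were above 0. Their median was 0.18, and 2 of them had an unadjusted p under 0.05 in limma. None passed the threshold in limma, and the median deviation of this list ran from -0.39 to 0.41 between libraries. Cytosolic ribosomal protein genes, taken as another large group of nuclear housekeeping genes, had 65 of 80 above 0 with a median of 0.069, of which 13 were higher at an unadjusted p under 0.05 and 0 passed the threshold. Over all tested genes, 51.1% were above 0, and 4.64% were higher at an unadjusted p under 0.05 in limma. Differences between these lists and the chain, or all tested genes, were not tested.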

How the data were processed

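RNA of PC3 cells was sequenced by the authors in 10 libraries, grouped by sample title. The methods describe ribosome-depleted, stranded total RNA, while the labels name polyA RNA. The submitters' processing notes name cutadapt, HISAT2 2.1.0, HTSeq 0.11.2, DESeq2 1.22.2 and hg38. The paper's methods name another Hisat2 version and the mouse genome, and the gene identifiers are human. The deposited values are RPKM. Whole reads were recovered from their steps (100% of values above 0 came out whole, within 1e-05 reads), and the library factors were median-of-ratios size factors. No pair of libraries was near-identical (chi-square per degree of freedom from 9.20 to 107).

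Values were tested as log2(RPKM + 0.1) with limma 3.58.1 under R 4.3.3 (linear model, moderated with a variance trend), two-sided. The 20402 genes averaging 0.5 RPKM or more were tested, and a Benjamini-Hochberg adjusted p under 0.05 was called. Fold changes are on that scale, which understates those of low genes. Exact permutation tests used SciPy 1.17.1. On simulated data the procedure recovered 5 of 57 genes with a log2 fold change of 0.3 either way. At 0.5 it recovered 25 of 71 and at 1 it recovered 61 of 69. A change of 0.3 would thus mostly be missed by the threshold. The members, lists and tests were chosen with earlier results of these data known. Named genes were those at either end of level in a complex or of fold change, those not overlapping between groups, isoform families, the SDH genes, NDUFA4, genes with a library far from the rest and those with most copies. NDUFB8, NDUFB9, NDUFA7 and NDUFS7 were named after their values were seen, and UQCRC1 and ATP5PD by the choice of promoters.

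As alternatives, the pseudocount was set to 1 or 0.01 and the minimum mean to 1 RPKM or to none. The others were TPM scaling, quantile normalization, no trend, library weights, a replicate block, the 7SL share, a length correction, voom on recovered reads and the loss of libraries. The first principal component as a covariate and the length of the principal transcript were added after the data were seen. A result for 1 gene is not reported here.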

Additional observations from a re-analysis of the deposited data

Results flagged for a closer look

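Each of 77 genes was looked at in both conditions, and in 5 of these 154 sets a single library stood apart, with a gap to its nearest neighbour that exceeded 0.71 of the range on the log2 scale (Dixon's critical value). Chance gives about 1 in 20, or 7.7 groups. The values of 4 of the 5 are given. NDUFS6 was at 37.3 RPKM in DMSO library 4 and from 29.8 to 30.8 in the others (gap 0.859 of the range). NDUFA3 was high in the same library, with 22.4 RPKM against 17.6 to 18.8 (gap 0.738). NDUFV2 was high in DMSO library 1, with 2.26 RPKM against 1.58 to 1.72 (gap 0.779). NDUFB1 was low in GW3965 library 5, with 5.77 RPKM against 6.32 to 6.40 (gap 0.881).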

How the results depend on the processing

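No gene of the chain passed the threshold in the main test or in any of the 24 alternatives, so every change of direction given here is one between values that were not past it. The direction of UQCRB, NDUFS5 and NDUFA4 did not change in any of them, with log2 fold changes from 0.26 to 0.43, from 0.18 to 0.36 and from -0.18 to -0.0062. TPM scaling moved the median of all tested genes by 0.132 (log2), to 0.136, and their share above 0 from 51.1 to 82.5%. It gave 76 of 77 genes above 0, with a median of 0.14 over all of them, 0.14 in complex I, 0.083 in complex II, 0.16 in complex III, 0.12 in complex IV and 0.15 in complex V, and turned ATP5F1B (0.072), ATP5MC3 (0.13), COX4I1 (0.098), COX5B (0.0056), COX6A1 (0.088), COX6B1 (0.13), COX7A2 (0.057), COX8A (0.068), CYC1 (0.052), NDUFB6 (0.046), SDHA (0.084), SDHB (0.081), SDHD (0.076) and UQCRFS1 (0.031) to values above 0. Quantile normalization gave 31 genes above 0 and turned ATP5MC1 (-0.014), ATP5MC2 (-0.00025), ATP5MG (-0.010), COX7A2L (-0.013), NDUFA3 (-0.016), NDUFB4 (-0.017), NDUFB7 (-0.025) and SDHC (-0.021). The first principal component as a covariate turned ATP5MC1 (-0.021), ATP5MG (-0.0072), COX7A2L (-0.013), NDUFA3 (-0.014), NDUFA9 (-0.0021), NDUFB4 (-0.016), NDUFB7 (-0.019) and SDHC (-0.023). The 7SL share turned ATP5MC3 (0.0023), COX4I1 (0.00084) and COX6B1 (0.023), library weights ATP5MC3 (0.017), COX4I1 (0.0097) and COX6B1 (0.041), and the length correction NDUFB7 (-0.0098). Leaving out DMSO library 1 and GW3965 libraries 1 and 2 together turned ATP5MC3 (0.044), COX4I1 (0.044), COX6B1 (0.046), NDUFB6 (0.037) and SDHD (0.075). The cause of these changes was not tested.

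The median changed sign in 5 of the 24 alternatives for complex I, 3 for complex II, 7 for complex III, 7 for complex IV and 5 for complex V. For complex III it was -0.022 with the 7SL share, -0.0080 with library weights and -0.0021 with quantile normalization, and for complex IV 0.014, 0.031 and -0.047.

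Leaving out 1 library at a time gave from 26 (without GW3965 library 4) to 56 genes above 0. Log2 fold changes that changed sign ranged from -0.033 to 0.068 for ATP5MC1, -0.013 to 0.063 for ATP5MC2, -0.037 to 0.028 for ATP5MC3, -0.024 to 0.082 for ATP5MG, -0.069 to 0.014 for COX4I1, -0.054 to 0.031 for COX6B1, -0.035 to 0.048 for COX7A2L, -0.030 to 0.064 for NDUFA3, -0.024 to 0.065 for NDUFA9, -0.027 to 0.043 for NDUFB4, -0.045 to 0.046 for NDUFB7, -0.065 to 0.091 for NDUFV2, -0.14 to 0.010 for SDHB, -0.031 to 0.052 for SDHC and -0.11 to 0.0070 for SDHD. The difference in the share of ATP5MC1 ranged from -0.53 to 0.45 percentage points.

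The deviations of libraries of the same number had correlations from -0.14 to 0.16 over all tested genes. Only DMSO library 4 correlated best with the GW3965 library of its own number. Such weak values cannot settle whether the numbers pair the libraries, and the main test did not pair them. With the number as a replicate block, 0 genes of the chain passed, the median over the chain stayed at 0.0073, 16 genes were called over all tested genes in place of 32, and UQCRB had an adjusted p of 0.388 in limma. Over all tested genes the alternatives called from 16 to 83 genes. Reads were few for COX7A1, with at most 44 per library, and few or absent for the 3 untested isoform genes.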
